A study of Mus musculus with 6 samples.

Results

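The mitosis, kinetochore and spindle genes form a set of 45 genes that encode centromere and kinetochore proteins, spindle checkpoint proteins, mitotic kinases, mitotic kinesins, the mitotic cyclins and proteins of cytokinesis. They were chosen by symbol, from their known roles, out of the 25572 genes of the deposited expression table. Earlier results of these data were known when they were chosen. All 45 were found. Hind limb skeletal muscle was taken from 3 HDCKO mice, which are Hdc-/- and lack histidine decarboxylase, the enzyme that makes histamine, and from 3 WT mice. Every mouse carried the treatment label HLI, which the study's title gives as hindlimb ischemia, and RNA was extracted 3 days after surgery. The 6 libraries are RNA-seq of total RNA from whole muscle, 1 library per numbered mouse, and the values are FPKM, fragment counts scaled for gene length and for library depth. There was no muscle without surgery among the samples used here, so the comparison is of HDCKO with WT muscle after the same operation. The sources used here do not state strain, age, sex, the allele's construction or which leg was sampled.

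The genes of this set act in a short window of the cell cycle. Cyclin B and Cdk1 drive cells into mitosis, kinetochores built on the Cenpa-containing centromere attach chromosomes to spindle microtubules, the spindle checkpoint holds back anaphase until all are attached, and a contractile ring then divides the cell. Most of these genes are transcribed in G2 and M phase and are silent in resting cells, and mature muscle fibres do not divide. In injured muscle, the dividing cells include myoblasts, recruited leukocytes, fibroblasts and endothelial cells.

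Many promoters of genes of this kind hold a CHR element (cell cycle genes homology region), whose core is TTTGAA, bound by the DREAM and MuvB complexes, and CCAAT boxes, bound by NF-Y. Sequences were credited to RefSeq (table build GRCm38.p6) and covered 250 bases before to 50 bases after each start. Of the 45 genes, 39 matched 43 promoter entries, and Tpx2, Ccna2, Incenp, Spc24, Aurkb and Kif20a had no entry. The letters TTTGAA, on either strand, were in 30 of the 43 member promoters (69.8%), against 17.9% of all 32851 promoters. CCAAT, on either strand, was in 34 of 43 (79.1%), against 37.4% of all promoters. Both were in 25 of 43 (58.1%), against 7.0%, and neither was in 4 of 43 (9.3%), against 51.7%. The GC box letters GGGCGG, which can share letters with ATTGG, were in 35 of 43 (81.4%), against 35.7%, and TATAAA was in 2 of 43 (4.7%), against 13.6%. The TTTGAA letters lay near the start, with 31 of 40 occurrences within 100 bases and a median position of -1, while CCAAT lay upstream, with 50 of 69 occurrences within 100 bases and a median position of -65. The 100 bases before the RefSeq start are printed for 2 genes that hold both motifs and for 3 that hold neither, to show the contrast. Capitals mark TTTGAA or CCAAT and their reverse complements TTCAAA and ATTGG, each sequence reads 5′ to 3′ on the gene's own strand, and the coordinates come from an exact match to GRCm39. Cdk1 lies at chr10:69188743-69188842 (minus strand), Top2a at chr11:98915016-98915115 (minus), Birc5 at chr11:117739963-117740062 (plus), Kif18a at chr2:109110983-109111082 (plus) and Mad2l1 at chr6:66512105-66512204 (plus).
Cdk1: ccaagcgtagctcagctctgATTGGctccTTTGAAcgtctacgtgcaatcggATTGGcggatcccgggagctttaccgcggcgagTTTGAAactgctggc
Top2a: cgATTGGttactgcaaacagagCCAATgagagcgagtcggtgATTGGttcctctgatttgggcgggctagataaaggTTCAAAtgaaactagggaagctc
Birc5: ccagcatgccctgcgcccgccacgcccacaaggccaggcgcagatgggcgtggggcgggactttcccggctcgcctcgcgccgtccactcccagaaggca
Kif18a: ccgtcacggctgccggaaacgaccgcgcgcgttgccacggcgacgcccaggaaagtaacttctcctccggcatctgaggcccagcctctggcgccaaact
Mad2l1: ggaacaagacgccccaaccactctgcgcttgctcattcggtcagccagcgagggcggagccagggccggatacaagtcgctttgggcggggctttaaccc
The windows of Cdk1 and Top2a hold CCAAT more than once, and the other three genes hold neither in the whole 300 bases searched. A match is a description of letters and not a shown binding site.

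The targeted gene was lower in HDCKO muscle but still detected, at 15.6%, 31.6% and 32.3% of its WT mean in HDCKO mice 1, 2 and 3. The part of tissue make-up in this fall was not tested. Hdc (chromosome 2, 126435558 to 126461318, GRCm39) had 1.22, 2.46 and 2.52 FPKM in HDCKO muscle, against 7.49, 7.72 and 8.17 FPKM in WT muscle (log2 change -1.74, SE 0.25, limma adjusted p = 0.00334). Fragment counts recovered from the FPKM steps gave 26967987 to 35074393 fragments per HDCKO library and 30981301 to 36070225 per WT library. Of 13288 genes that averaged 0.5 FPKM or more, 5658 (42.6%) were lower and 2362 (17.8%) were higher in HDCKO muscle at an adjusted p under 0.05 (limma on log2(FPKM + 0.5), Benjamini-Hochberg over all genes tested). Genes called higher made up 29.5% of the calls, and 50.0% with median-of-ratios scaling, 43.8% with quantile normalization and 45.8% when muscle fibre and mitochondrial genes were left out of the total. The median log2 change over all tested genes was -0.50, and -0.04, -0.12 and -0.22 under those 3 scalings, so the values of the mitotic genes are read beside that shift. The HDCKO libraries differed among themselves in cell type markers. The 4 B cell markers summed to 0.488, 62.3 and 177 FPKM in HDCKO mice 1, 2 and 3, against 0.898, 1.70 and 0.821 FPKM in the WT mice.

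Mitotic genes were lower in HDCKO muscle throughout the set. Of the 45, all of which passed the filter, 42 (against 42.6% of all tested genes) fell in HDCKO muscle and 0 rose (limma, with 0 higher at an unadjusted p under 0.05 and 0 higher with voom, against 17.8% of all tested genes). The median log2 change was -2.53, against -0.50 over all tested genes. It ranged from -3.37 for Ccnb1 to -1.05 for Kif18a, and 45 genes were past a size of 1, 37 past 2 and 9 past 3. In all 45 genes every HDCKO library lay below every WT library, as in 51.4% of all tested genes. Bub1b, Kif23 and Mki67 missed the threshold, with adjusted p-values of 0.0525, 0.0603 and 0.0585. In bulk tissue, fewer dividing cells, less of these transcripts per cell and a different make-up of the sampled tissue cannot be told apart. That make-up differed by group, as 9 muscle fibre markers took 15.9%, 13.8% and 9.5% of the summed FPKM in HDCKO mice 1, 2 and 3. In WT mice 1, 2 and 3 they took 0.325%, 0.1% and 0.0844%. The part of this difference in the mitotic values was not tested.

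The 3 HDCKO mice were low to very different degrees. Summed over the 45 genes, HDCKO mice 1, 2 and 3 had 11.9, 40 and 304 FPKM, against 480, 492 and 636 FPKM in WT mice 1, 2 and 3. As a share of the library's summed FPKM these were 0.00261%, 0.00883% and 0.0718% in HDCKO muscle and 0.116%, 0.117% and 0.157% in WT muscle. The groups did not overlap, and HDCKO mouse 3 stood nearer to WT than to HDCKO mouse 1. The median gene reached 0.973% of its WT mean in HDCKO mouse 1, 6.14% in HDCKO mouse 2 and 56.1% in HDCKO mouse 3. The order of HDCKO mouse 1 below 2 below 3 held in 44 of the 45 genes (97.8%), against 57% of all tested genes and 82% of genes called lower. Aurka was the exception, being lowest in HDCKO mouse 2. The WT mice were close to each other, with a coefficient of variation between 3.06% and 28.7% (median 16.5%), while among HDCKO mice it ran between 51.8% and 168% (median 145%). WT mouse 3 had the highest value in 44 of the 45 genes.

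The number of genes that passed changed when single mice were left out, which also leaves fewer mice in a group. Without HDCKO mouse 3, the nearest to WT, all 45 genes were lower at an adjusted p under 0.05 (limma), against 55.1% of all genes in that fit. Without HDCKO mouse 1, 18 were lower, against 33.3% of all genes. Without HDCKO mouse 2 the number was 2, against 18.9% of all genes, and without WT mice 1, 2 and 3 it was 4, 3 and 2, against 22.4%, 23.5% and 21.1%. In these last 4 fits the share of the 45 genes called was thus below that of all genes, the reverse of the fit over all 6 mice. At an unadjusted p under 0.05 (limma), 27 were lower without HDCKO mouse 2, and 35, 33 and 28 without WT mice 1, 2 and 3. Cenpk and Cenpm, which encode inner kinetochore proteins, passed in each of those 4 fits, and they had the 2 smallest adjusted p-values over all 6 mice. The log2 change was negative for each gene in every fit that tested it, and the median lay between -1.86 and -3.47 when 1 library was left out. With no filter on low values, 15 of the 45 passed, against 21.1% of the 25572 genes then tested. Scaling also ended calls. With median-of-ratios scaling 32 of the 45 were lower, against 26.3% of all genes, and Ndc80, Spc24, Incenp, Aurka, Kif11, Kif15, Ccnb1, Ccnb2, Ect2 and Top2a no longer passed. With fibre and mitochondrial genes left out of the total 29 were lower, against 27.8% of all genes, and Aurkb, Cdca8 and Ccna2 were lost as well as those 10. Quantile normalization ended the call of Aurka and left 41, against 30.3% of all genes.

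**Figure D1:**
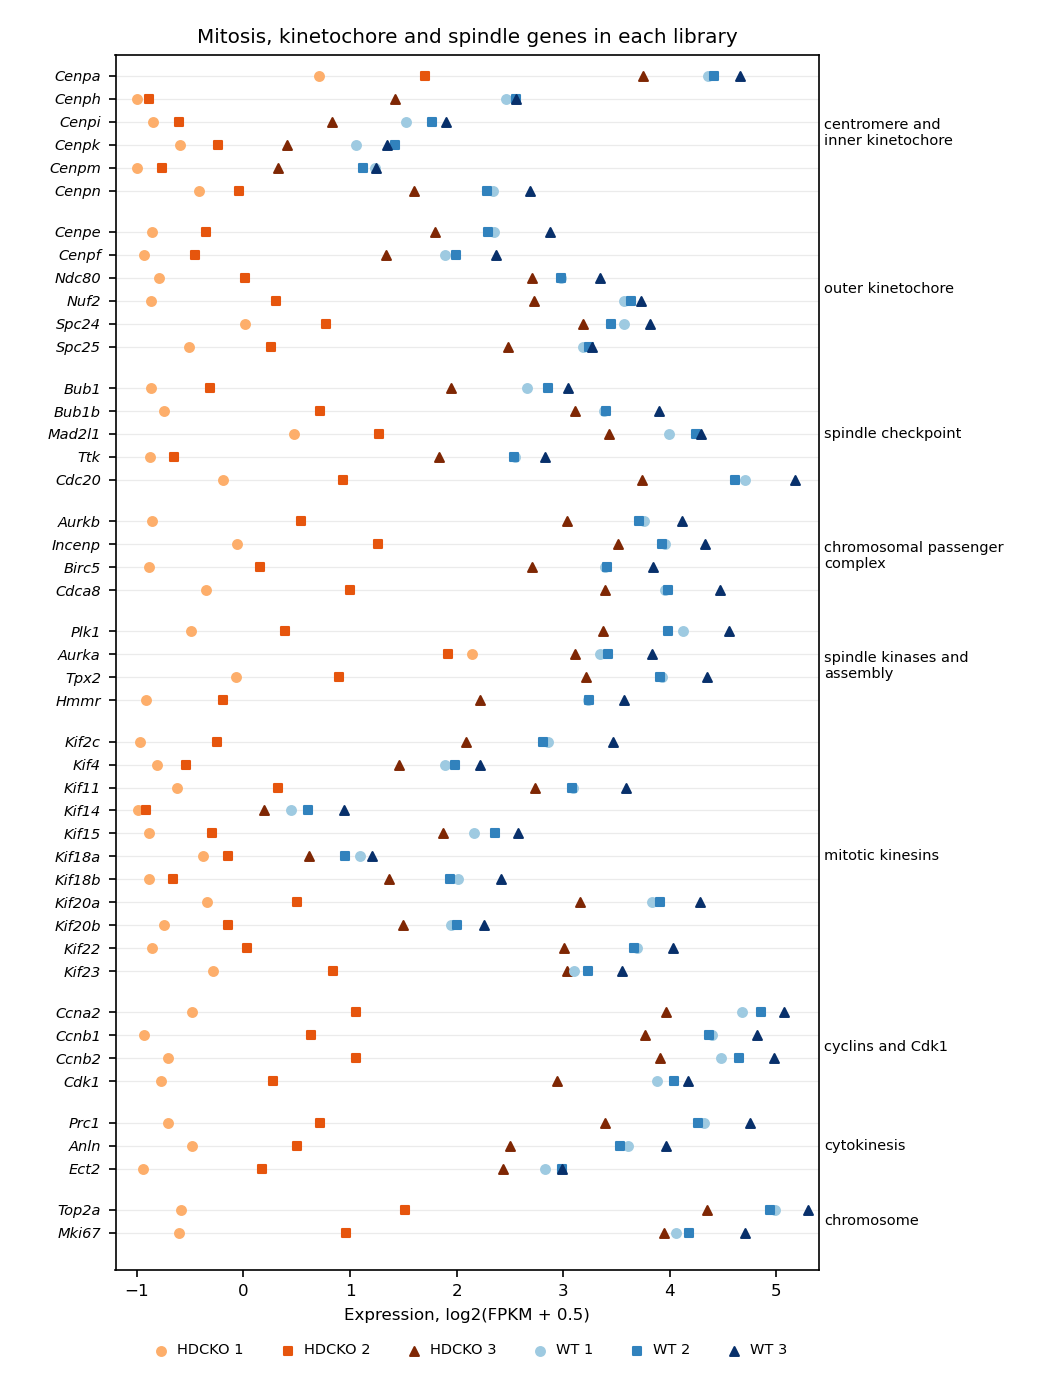
FPKM of each of the 45 genes in each library (log axis), grouped by role, with HDCKO mice and WT mice as separate symbols. In every gene the HDCKO symbols lie below the WT symbols, and HDCKO mouse 3 lies nearest to WT in all 45.

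**Figure D2:**
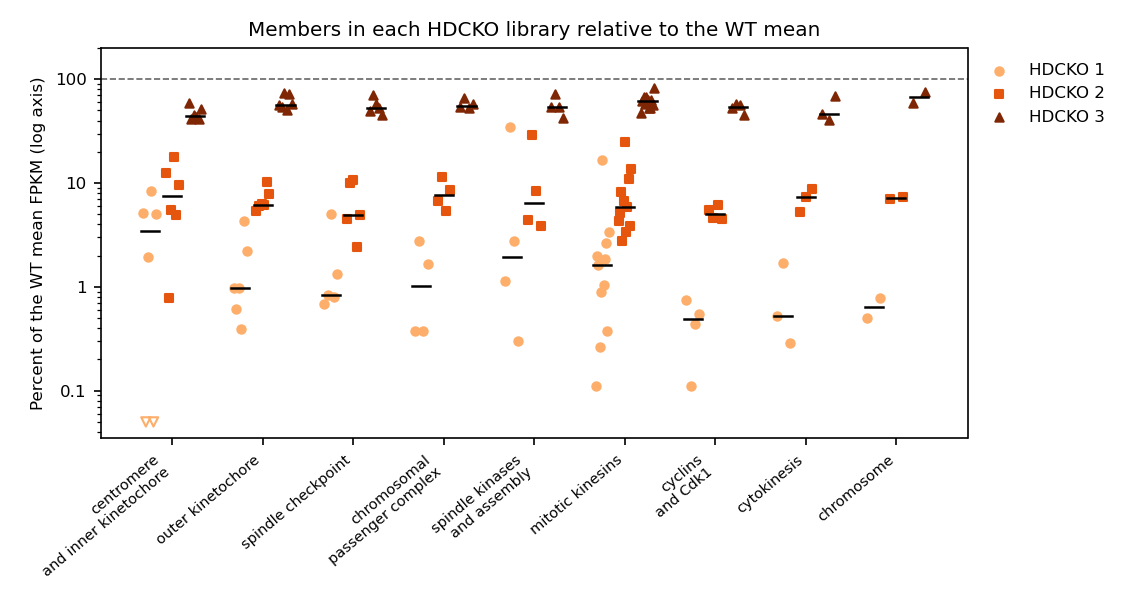
Level of each gene in each HDCKO mouse as a percent of its WT mean (log axis), with 1 point per gene, a black bar at the median and a dashed line at 100%. The medians were 0.973%, 6.14% and 56.1% in HDCKO mice 1, 2 and 3, and open triangles mark Cenph and Cenpm, which had 0 fragments in HDCKO mouse 1.

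The mitotic cyclins and their kinase had the largest median change of the 9 roles, a log2 change of -3.32, with 4 of 4 lower, against 42.6% of all tested genes. Ccnb1 encodes cyclin B1, which activates Cdk1 at mitotic entry (chromosome 13, 100915153 to 100923116, GRCm39, minus strand). It had 0.0251, 1.05 and 13.1 FPKM in HDCKO muscle, against 20.6, 20.2 and 27.7 FPKM in WT muscle (log2 change -3.37, SE 1.12, limma adjusted p = 0.0400). HDCKO mouse 1 held 2 Ccnb1 fragments, or 0.110% of the WT mean with an exact Poisson 95% interval of 0.0133% to 0.398%, which covers counting error only. Cdk1, the kinase itself, had 0.0869, 0.709 and 7.19 FPKM in HDCKO muscle, against 14.3, 16 and 17.5 FPKM in WT muscle (log2 change -3.22, SE 0.90, limma adjusted p = 0.0238). Ccna2, the S and G2 phase cyclin A2, had 0.215, 1.58 and 15.2 FPKM in HDCKO muscle, against 25.1, 28.5 and 33.1 FPKM in WT muscle. Ccnb2, the second B-type cyclin, averaged 5.4 ± 7.93 FPKM in HDCKO muscle and 25.8 ± 4.73 FPKM in WT muscle (SD, n = 3 each). In all 4 genes the highest HDCKO mouse was below the lowest WT mouse, at 50.4% (Cdk1) to 66.4% (Ccnb2) of its value.

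At the centromere and inner kinetochore, 6 of 6 genes fell, against 42.6% of all tested genes, by a median log2 change of -2.0. Cenpa, the histone H3 variant that marks the centromere, had 1.14, 2.75 and 12.9 FPKM in HDCKO muscle, against 20, 20.9 and 24.7 FPKM in WT muscle (log2 change -2.43, SE 0.73, limma adjusted p = 0.0297). Cenph, a subunit of the constitutive centromere network that sits on Cenpa chromatin, had 0, 0.0414 and 2.17 FPKM in HDCKO muscle, against 5.01, 5.38 and 5.38 FPKM in WT muscle. The 0 of HDCKO mouse 1 allows up to 1.01% of the WT mean (a floor of 3 fragments), and HDCKO mouse 2 held 2 Cenph fragments. Cenph also stood lowest of all 45 genes when the highest HDCKO value was set against the lowest WT value, at 43.4%. Cenpm, from the same network, had 0, 0.0883 and 0.749 FPKM in HDCKO muscle, against 1.85, 1.67 and 1.86 FPKM in WT muscle (log2 change -1.68, SE 0.35, limma adjusted p = 0.0106). Cenpk, another subunit, had 0.164, 0.348 and 0.832 FPKM in HDCKO muscle, against 1.57, 2.19 and 2.05 FPKM in WT muscle. Its adjusted p of 0.00937 (limma) was the smallest of the set although its log2 change of -1.41 was modest. Cenpi, another subunit of the network, and Cenpn, which reads Cenpa nucleosomes, fell by 1.94 and 2.06 on the log2 scale.

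The outer kinetochore genes, whose products grip the microtubule, fell in 6 of 6 cases, against 42.6% of all tested genes, with a median log2 change of -2.38. Ndc80 and Nuf2 encode one arm of the Ndc80 complex, and Spc24 and Spc25 the other. Nuf2 had 0.0469, 0.738 and 6.12 FPKM in HDCKO muscle, against 11.4, 11.9 and 12.7 FPKM in WT muscle (log2 change -2.92, SE 0.86, limma adjusted p = 0.0277). Ndc80 had 0.0792, 0.508 and 6.05 FPKM in HDCKO muscle, against 7.37, 7.37 and 9.68 FPKM in WT muscle. All 4 subunits fell, with log2 changes between -2.92 (Nuf2) and -2.29 (Spc24). Cenpe, a kinesin motor at the kinetochore, and Cenpf, a large protein of its corona, fell by 2.31 and 2.10 on the log2 scale. For Spc25, 52.5% of the exon bases overlap Nostrin on the opposite strand, and with no strand setting stated for the counting, reads of the pair cannot be told apart. Nostrin had 0.370, 1.63 and 3.34 FPKM in HDCKO muscle, against 3.17, 3.13 and 2.92 FPKM in WT muscle.

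Spindle checkpoint genes fell in 4 of 5 cases, against 42.6% of all tested genes, with a median log2 change of -2.54. Bub1, a kinase that docks checkpoint proteins at the kinetochore, had 0.0468, 0.304 and 3.36 FPKM in HDCKO muscle, against 5.82, 6.74 and 7.78 FPKM in WT muscle (log2 change -2.60, SE 0.71, limma adjusted p = 0.0222). Ttk, the Mps1 kinase that starts the checkpoint signal, had 0.0456, 0.138 and 3.07 FPKM in HDCKO muscle, against 5.37, 5.31 and 6.62 FPKM in WT muscle. Mad2l1, which with BubR1 sequesters Cdc20, had 0.891, 1.92 and 10.3 FPKM in HDCKO muscle, against 15.5, 18.4 and 19.1 FPKM in WT muscle. These 3 genes showed the same order of mice. Cdc20, the activator of the anaphase promoting complex and the checkpoint's target, had 0.375, 1.41 and 12.9 FPKM in HDCKO muscle, against 25.6, 24.0 and 35.6 FPKM in WT muscle (log2 change -3.34, SE 0.96, limma adjusted p = 0.0256). Bub1b, which encodes BubR1, did not pass. It had 0.0948, 1.14 and 8.17 FPKM in HDCKO muscle, against 9.90, 10.1 and 14.4 FPKM in WT muscle (log2 change -2.53, SE 0.92, limma adjusted p = 0.0525), and its groups did not overlap.

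All 4 genes of the chromosomal passenger complex, which corrects wrong attachments and later works at the midzone, fell, against 42.6% of all tested genes. Their median log2 change was -2.84. Aurkb, its kinase, had 0.0534, 0.950 and 7.69 FPKM in HDCKO muscle, against 13.1, 12.6 and 16.8 FPKM in WT muscle (log2 change -2.96, SE 0.93, limma adjusted p = 0.0334). Birc5, survivin, had 0.0425, 0.615 and 6.01 FPKM in HDCKO muscle, against 10, 10.1 and 13.8 FPKM in WT muscle (log2 change -2.89, SE 0.87, limma adjusted p = 0.0299). Incenp, the scaffold, and Cdca8, borealin, fell by 2.5 and 2.79 on the log2 scale. The 4 subunits together spanned a narrow range, and in HDCKO mouse 3 they stood at 53.1% (Birc5) to 66.5% (Incenp) of their WT means.

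Among the spindle kinases and assembly factors, 4 of 4 fell, against 42.6% of all tested genes, and Aurka stood apart. Plk1, a kinase needed for entry, spindle poles and cytokinesis, had 0.210, 0.811 and 9.89 FPKM in HDCKO muscle, against 16.9, 15.3 and 23.1 FPKM in WT muscle (log2 change -3.13, SE 0.96, limma adjusted p = 0.0311). Tpx2, which activates Aurora A on microtubules, and Hmmr, a spindle pole protein, fell by 2.71 and 2.98 on the log2 scale. Aurka, which encodes Aurora A (chromosome 2, 172198109 to 172212849, GRCm39, minus strand), had 3.92, 3.29 and 8.16 FPKM in HDCKO muscle, against 9.68, 10.2 and 13.7 FPKM in WT muscle (log2 change -1.14, SE 0.34, limma adjusted p = 0.0287). Aurka thus kept 34.9% and 29.3% of its WT mean in HDCKO mice 1 and 2, the highest of the 45 genes in both. Its call was lost under each of the 3 other scalings, with a log2 change of -0.65 under median-of-ratios scaling (limma adjusted p = 0.0739), -0.71 under quantile normalization (0.0563) and -0.84 without fibre and mitochondrial genes in the total (0.0708). As reported here, Kif18a had the smallest change of the set and Aurka the next, while Aurka's was the smaller of the pair under those 3 scalings, with a pseudocount of 0.1, with voom and without HDCKO mouse 2. On the opposite strand, Fam210b overlaps 25.2% of the Aurka exon bases and Cstf1 7.5%. Fam210b had 4.25, 5.0 and 4.69 FPKM in HDCKO muscle, against 3.72, 4.39 and 3.24 FPKM in WT muscle (limma adjusted p = 0.18), with the groups overlapping. The part of these overlapping genes in the Aurka values was not tested.

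Of the 11 mitotic kinesins, 10 fell, against 42.6% of all tested genes, with a median log2 change of -2.14. Kif11, which pushes the spindle poles apart, had 0.150, 0.756 and 6.14 FPKM in HDCKO muscle, against 8.01, 7.97 and 11.6 FPKM in WT muscle (log2 change -2.44, SE 0.82, limma adjusted p = 0.0416). Kif22, a chromosome-arm kinesin, had 0.0511, 0.521 and 7.57 FPKM in HDCKO muscle, against 12.4, 12.2 and 15.8 FPKM in WT muscle. Its log2 change of -3.07 was the largest of the family as reported here. Over the other settings the most negative values were -4.73 for Kif2c, -4.42 for Kif14 and -4.26 for Kif22, so this ranking depended on the setting. Kif2c, which takes microtubules apart at centromeres, had 1 fragment in HDCKO mouse 1 (0.112% of the WT mean, exact Poisson 95% interval 0.00284% to 0.624%). At the other end stood Kif18a, which limits chromosome oscillations. It had 0.270, 0.404 and 1.03 FPKM in HDCKO muscle, against 1.63, 1.43 and 1.81 FPKM in WT muscle (log2 change -1.05, SE 0.28, limma adjusted p = 0.0209). Kif23, the kinesin of centralspindlin, did not pass. It had 0.319, 1.29 and 7.72 FPKM in HDCKO muscle, against 8.07, 8.88 and 11.2 FPKM in WT muscle (log2 change -2.10, SE 0.80, limma adjusted p = 0.0603), and HDCKO mouse 3 reached 95.7% of the lowest WT mouse. Kif4, Kif14, Kif15, Kif18b, Kif20a and Kif20b fell by 1.24 (Kif14) to 2.90 (Kif20a) on the log2 scale. Kif14 was the lowest of the set in WT muscle, at 1.10 ± 0.287 FPKM (SD, n = 3), so the added 0.5 FPKM shrinks its change. Opposite-strand genes overlap 54.8% of the exon bases of Kif20a (Cdc23) and 18% of those of Kif22, and Kif4, Kif22, Ccnb1 and Ccnb2 have named pseudogenes, which leaves their fragment assignment uncertain.

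Cytokinesis genes fell in 3 of 3 cases, against 42.6% of all tested genes. Prc1, which bundles midzone microtubules, had 0.114, 1.15 and 9.99 FPKM in HDCKO muscle, against 19.5, 18.7 and 26.4 FPKM in WT muscle (log2 change -3.31, SE 0.98, limma adjusted p = 0.0282). Anln, the contractile ring scaffold anillin, had 0.214, 0.918 and 5.16 FPKM in HDCKO muscle, against 11.7, 11.1 and 15.1 FPKM in WT muscle (log2 change -2.86, SE 0.72, limma adjusted p = 0.0178). In HDCKO mouse 3, Anln kept 40.8% of its WT mean, the lowest of the 45 genes in that mouse. Ect2, the exchange factor that turns on RhoA at the division plane, fell by 2.38 on the log2 scale. Top2a, the topoisomerase that untangles sister chromosomes, had 0.166, 2.36 and 19.8 FPKM in HDCKO muscle, against 31.2, 30.3 and 38.9 FPKM in WT muscle (log2 change -3.32, SE 1.16, limma adjusted p = 0.0461). Mki67, the antigen used as a marker of cycling cells (chromosome 7, 135291513 to 135318299, GRCm39, minus strand), had 0.156, 1.44 and 14.9 FPKM in HDCKO muscle, against 16.2, 17.6 and 25.6 FPKM in WT muscle (log2 change -2.88, SE 1.09, limma adjusted p = 0.0585). Mki67 did not pass, and HDCKO mouse 3 was at 92% of the lowest WT mouse. With median-of-ratios or quantile scaling, Kif23 and Mki67 overlapped between the groups and the other 43 genes did not. With fibre and mitochondrial genes left out of the total, Aurka overlapped as well.

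**Figure D3:**
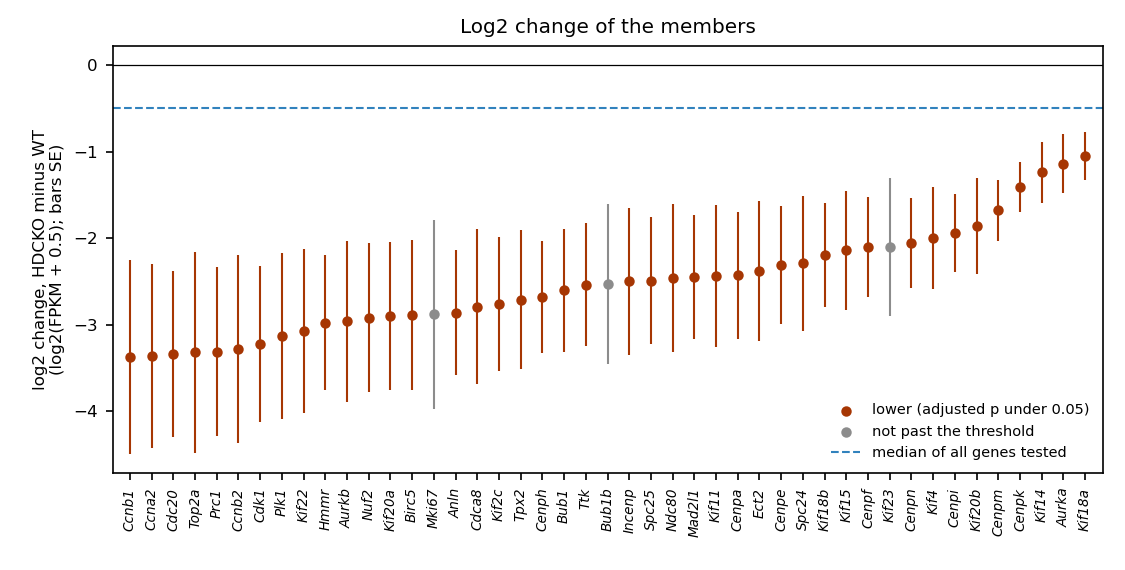
Log2 change of each gene in HDCKO relative to WT muscle, with its SE, in order of size; the dashed line is the median of all genes tested. The points run from -3.37 (Ccnb1) to -1.05 (Kif18a), and Bub1b, Kif23 and Mki67 are the 3 genes that did not pass the limma threshold.

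The relative levels of the genes were kept in HDCKO mouse 3 and less so in the other HDCKO mice. In WT muscle Top2a was highest at 33.5 ± 4.74 FPKM, followed by Ccna2 at 28.9 ± 4.02 and Cdc20 at 28.4 ± 6.31 (SD, n = 3 each). Top2a was above both others in each WT mouse, while Ccna2 and Cdc20 changed places between WT mice. Across the 45 genes, Pearson's r of log2 levels with the WT mean was 0.31, 0.81 and 0.98 in HDCKO mice 1, 2 and 3, and Spearman's rho was 0.48, 0.85 and 0.97. These are correlations across genes, which share gene length and library and are not replicates. The fragments on the 45 genes differed with them. The median gene had 13, 61 and 630 fragments in HDCKO mice 1, 2 and 3, against 900, 1088 and 1307 fragments in WT mice 1, 2 and 3. Library depth did not follow that order, with 30802370, 26967987 and 35074393 fragments in all in HDCKO mice 1, 2 and 3. In HDCKO mouse 1, 19 genes had under 10 fragments. Genes with and without the promoter letters had close medians, as the 28 genes with TTTGAA had a median log2 change of -2.51 and the 11 without it -2.45. The same held for CCAAT, with medians of -2.51 in 30 genes and -2.46 in 9.

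Other genes of the cell cycle were set beside the 45. Of 62 tested genes from a list of other mitosis genes, 55 fell (limma, against 42.6% of all tested genes), the median log2 change was -1.90 and the least negative was -0.28. Hjurp, the chaperone of Cenpa, had 3.31, 4.57 and 8.87 FPKM in HDCKO muscle, against 16.2, 16.9 and 18.7 FPKM in WT muscle (log2 change -1.65, SE 0.33, limma adjusted p = 0.00932). Zwint, Cenpw and Cenpt, all of the kinetochore, fell by 0.90, 1.79 and 1.88 on the log2 scale. Of 37 DNA replication genes 34 fell, with a median of -1.91 and a least negative value of -0.58. Orc1, the largest subunit of the origin recognition complex, had 0.0868, 0.135 and 0.917 FPKM in HDCKO muscle, against 2.45, 2.85 and 3.19 FPKM in WT muscle (log2 change -2.04, SE 0.36, limma adjusted p = 0.00631). Orc6, of the same complex, Tyms, thymidylate synthase, and Rfc4, of the clamp loader, fell by 1.66, 2.58 and 0.96. Replication genes thus fell with mitotic genes, and the mean log2 level of the 45 minus that of the replication genes was -1.30, -1.15 and -0.54 in HDCKO mice 1, 2 and 3, against -0.48, -0.61 and -0.30 in WT mice 1, 2 and 3. These counts also changed when single mice were left out. Without HDCKO mouse 2, 4 of the 62 other mitosis genes and 4 of the 37 replication genes were lower, against 18.9% of all genes, so that both lists lay below the share of all genes in that fit. Without HDCKO mouse 1 these were 29 and 22, against 33.3% of all genes. Without WT mice 1, 2 and 3 they were 14, 12 and 6 for mitosis and 8, 6 and 6 for replication, against 22.4%, 23.5% and 21.1% of all genes. With no filter they were 28 and 17, against 21.1%.

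The pooled condensin and cohesin list and the anaphase promoting complex had median changes nearer to that of all genes. Of 13 condensin and cohesin genes 11 fell, against 42.6% of all tested genes, with a median log2 change of -0.84. The condensin genes Smc2, Ncapg2 and Ncaph fell by 2.56, 2.41 and 2.16, and the cohesin gene Stag1 fell by 0.74. Condensin genes ranged widely, with log2 changes of -2.66 (Ncapg) to -0.52 (Ncapd3), and cohesin genes had -0.84 (Smc1a) to -0.26 (Stag2), so the 2 complexes overlapped. The pooled median does not describe condensin alone. Ncapg, Smc2, Ncapg2, Ncaph, Smc4 and Ncapd2 had log2 changes of -2.66 to -1.40, while Ncaph2 and Ncapd3 had -0.56 and -0.52. Of 15 genes of the anaphase promoting complex 10 fell and 2 rose (against 42.6% and 17.8% of all tested genes), with a median of -0.77, near the -0.50 of all genes. Anapc4 and Anapc10 fell by 0.81 and 0.80, while Anapc5 had 153, 159 and 116 FPKM in HDCKO muscle, against 59.9, 52.5 and 61.7 FPKM in WT muscle (log2 change 1.28, SE 0.18, limma adjusted p = 0.00312). Anapc13 also rose, by 1.03. Under median-of-ratios scaling, 4 condensin and cohesin genes and 1 gene of the anaphase promoting complex were lower, against 26.3% of all genes. The counts changed when single mice were left out. Without HDCKO mouse 2 or WT mouse 3, 0 condensin and cohesin genes passed (limma, 4 at an unadjusted p under 0.05 in each fit). In each of these fits 1 gene of the anaphase promoting complex passed, against 18.9% and 21.1% of all genes. Without WT mouse 1 or WT mouse 2, 0 condensin and cohesin genes passed (limma, 8 at an unadjusted p under 0.05 in each fit), and 3 and 5 genes of the anaphase promoting complex, against 22.4% and 23.5% of all genes. Without HDCKO mouse 1 the numbers were 3 and 6, against 33.3%.

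Of 20 transcription factors and pocket proteins 8 fell and 3 rose, near the 42.6% and 17.8% of all tested genes, so the counts show nothing particular to this list. Foxm1, which drives G2 and M phase transcription, had 0.200, 0.474 and 5.10 FPKM in HDCKO muscle, against 8.39, 8.86 and 12.3 FPKM in WT muscle (log2 change -2.71, SE 0.77, limma adjusted p = 0.0249). Mybl2, which encodes B-Myb, a binding partner of MuvB, and E2f1, an activator of S phase genes, fell by 2.15 and 2.44. E2f7, a repressor that is itself induced in S phase, and Tfdp1, the partner of E2F proteins, fell by 1.70 and 1.11. Rbl2, the p130 pocket protein of the DREAM complex in resting cells, had 12.4, 13.4 and 12.8 FPKM in HDCKO muscle, against 6.25, 7.28 and 6.60 FPKM in WT muscle (log2 change 0.89, SE 0.13, limma adjusted p = 0.00345). Tfdp2, another E2F partner, and Lin52, a MuvB subunit, rose by 1.21 and 0.69. E2f2, an activating E2F, was not called and broke the pattern, with 0.366, 0.732 and 5.73 FPKM in HDCKO muscle, against 2.5, 2.78 and 4.17 FPKM in WT muscle, so that HDCKO mouse 3 was above every WT mouse. Of 15 G1 cyclins, kinases and inhibitors 7 fell and 2 rose, also near those shares. Ccnd1, cyclin D1, and Cdk4, its kinase, fell by 2.75 and 1.95, and the inhibitor genes Cdkn1a and Cdkn2d fell by 1.05 and 1.21. Cdkn1c, the inhibitor p57, had 21.0, 17.8 and 35.3 FPKM in HDCKO muscle, against 3.02, 2.31 and 5.10 FPKM in WT muscle (log2 change 2.66, SE 0.35, limma adjusted p = 0.0026). Ccng1, cyclin G1, rose by 2.74. Lin52 and Ccnd1 were named after their values were seen. Without HDCKO mouse 2 or WT mouse 3 1 transcription factor gene was lower (against 18.9% and 21.1% of all genes), and without HDCKO mouse 3 or with sample weights 15 were (55.1% and 58.1%). Without WT mouse 1 or WT mouse 2 the number was 2 (22.4% and 23.5%), and without HDCKO mouse 1 it was 5 (33.3%). Of the G1 genes, 2 or 3 were lower without HDCKO mouse 2 or any WT mouse.

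Marker lists of other cell types went in different directions, and only some were lower in HDCKO muscle as the mitotic genes were. The mean log2 level of 12 monocyte and macrophage markers was 2.74, 4.20 and 5.71 in HDCKO mice 1, 2 and 3, against 6.79, 6.15 and 6.79 in WT mice 1, 2 and 3. That mean had the same order of HDCKO mice as the mitotic genes, though C1qa did not. Of the 12 markers 7 fell, against 42.6% of all tested genes. Adgre1, Csf1r, C1qa, C1qb and C1qc were not called, with log2 changes of -1.72 (Adgre1) to -0.06 (C1qa) and overlapping groups. The mean log2 level of the 45 minus that of the 12 markers was -3.29, -3.90 and -3.19 in HDCKO mice 1, 2 and 3. In WT mice 1, 2 and 3 it was -3.66, -2.98 and -3.29, and the groups overlapped on that difference. The added 0.5 FPKM shrinks the fall of the 45, as 43 and 29 were under 1 FPKM in HDCKO mice 1 and 2. Summed FPKM in HDCKO mice 1, 2 and 3 were 11.9, 40 and 304 for the 45 and 153, 461 and 795 for the markers. In WT mice 1, 2 and 3 they were 480, 492 and 636 for the 45 and 1570, 1180 and 1580 for the markers. Neutrophil markers, of cells that no longer divide, fell in 8 of 8 cases (42.6% of all tested genes) and summed to 32.9, 75.9 and 67.7 FPKM in HDCKO muscle, against 3920, 14200 and 2440 FPKM in WT muscle. WT mouse 2, with most of these, was not the highest WT mouse for mitotic genes. Muscle fibre markers rose in 9 of 9 cases, against 17.8% of all tested genes, and their mean log2 level was 11.80, 11.48 and 10.92 in HDCKO muscle, against 5.59, 4.29 and 3.97 in WT muscle. These 9 genes took 15.9%, 13.8% and 9.50% of the summed FPKM of the HDCKO libraries, against 0.325%, 0.10% and 0.0844% of the WT libraries. Satellite cell and myoblast markers rose in 3 of 7 tested cases (Myog, Cdh15 and Chodl), against 17.8% of all tested genes. Mymk, needed for myoblast fusion, had 0.0389, 0.318 and 18.2 FPKM in HDCKO muscle, against 0.923, 0.0181 and 1.23 FPKM in WT muscle. Against the 42.6% of all tested genes, endothelial markers fell in 5 of 8 cases, erythroid markers in 5 of 5 and the only tested neutrophil precursor marker fell. Fibroblast markers fell in 2 of 8 cases, below that share, and their mean log2 level overlapped between the groups. Mural markers fell in 1 of 6 cases and rose in 2, with mean log2 levels of 4.77, 4.63 and 4.69 in HDCKO muscle, against 4.08, 4.33 and 4.10 in WT muscle. Mean levels of the Schwann cell markers (1 of 4 higher, against 17.8% of all tested genes) and the adipocyte markers overlapped between the groups. T and NK cell markers, with limma adjusted p-values of 0.0869 to 0.246, summed to 0.161, 35.1 and 58.7 FPKM in HDCKO mice 1, 2 and 3, against 1.81, 1.92 and 1.32 FPKM in WT mice, with Cd8a and Nkg7 at 0 in HDCKO mouse 1. HDCKO mouse 1, with the fewest mitotic transcripts, had the least of the lymphocyte markers. The WT mice, with the most mitotic transcripts, had less of these markers than HDCKO mice 2 and 3, so the parallel did not hold over all 6 libraries. The part of these cell types in the level of the mitotic genes was not tested.

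**Figure D4:**
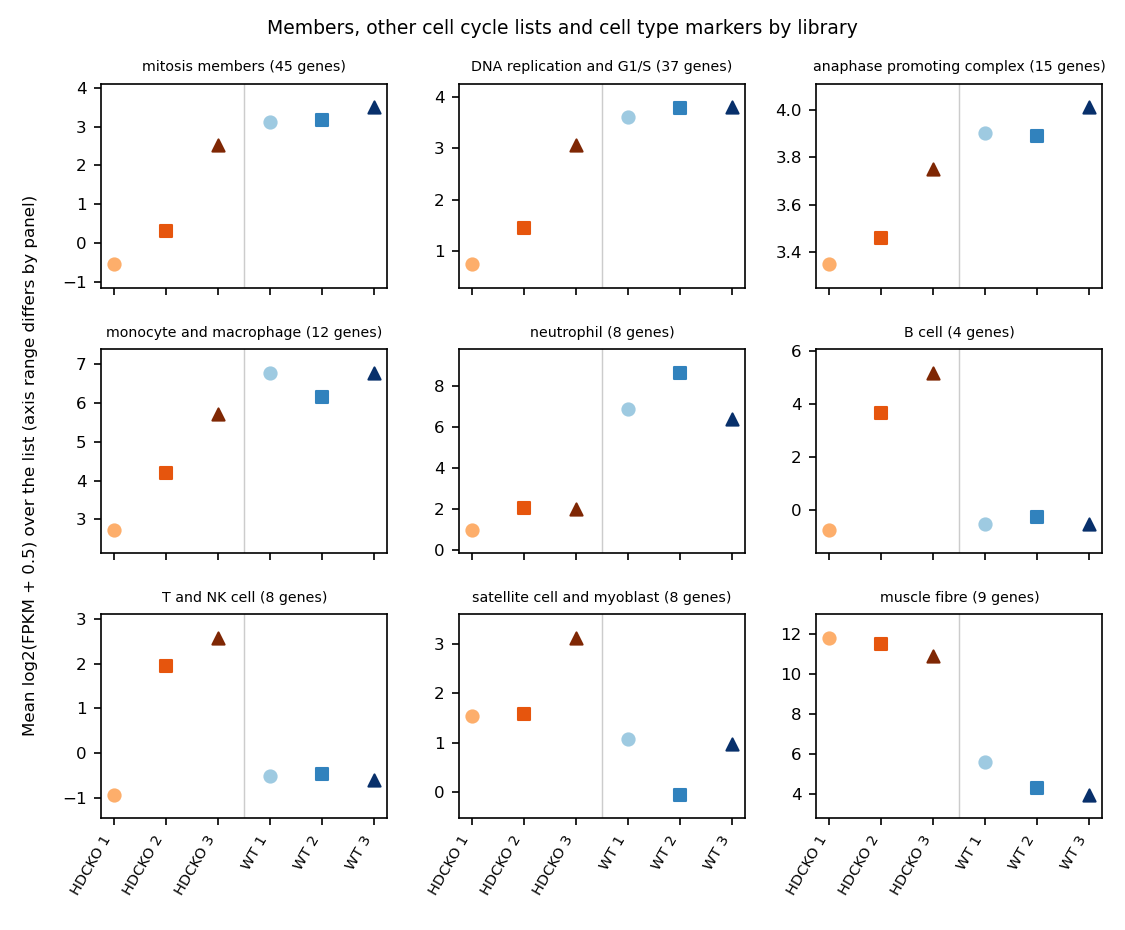
Mean log2(FPKM + 0.5) of the 45 mitotic genes, of 2 other cell cycle lists and of 6 cell type marker lists in each library, with HDCKO mice left of WT mice and an axis range of its own in each panel. The 45 genes had -0.55, 0.30 and 2.52 in HDCKO mice 1, 2 and 3, against 3.13, 3.17 and 3.50 in WT mice 1, 2 and 3.

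**Figure D5:**
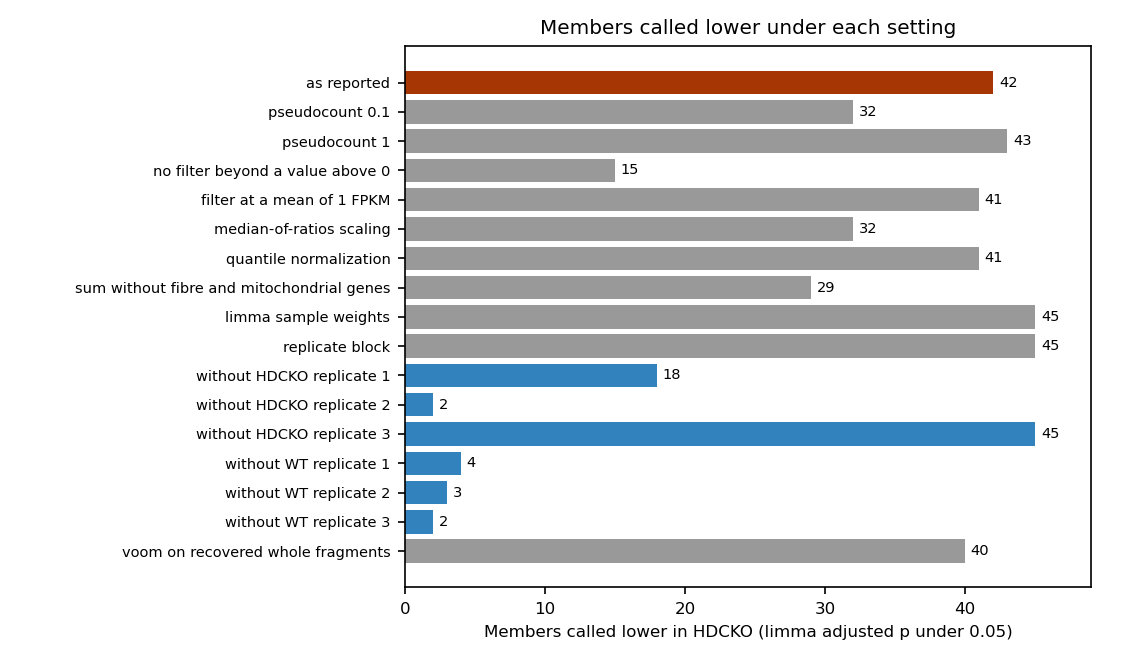
Number of the 45 genes called lower in HDCKO muscle (adjusted p under 0.05), as reported (top bar), under other settings (grey) and with 1 mouse left out (blue). The count was 42 over all 6 mice, 45 without HDCKO mouse 3 and 2 without HDCKO mouse 2 or WT mouse 3.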

How the data were processed

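Total RNA of hind limb muscle from 3 HDCKO and 3 WT mice was sequenced, and the authors deposited 1 table of FPKM values per gene. Per the submitters' processing notes, the tools were FastQC 0.11.9, HISAT2 2.1.0, STAR 2.7.11b, HTSeq 0.11.2 and DESeq2 1.22.2, with genome build GRCm39. The sources used here do not say which aligner lay behind the FPKM values or how strand was set. Abundant fibre transcripts take a larger share of the total in each HDCKO library than in any WT library. FPKM values depend on that total. With muscle fibre and mitochondrial genes left out of it, the median log2 change was -2.31 over the 45 genes and -0.22 over all tested genes.

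From the deposited FPKM values, genes averaging 0.5 FPKM or more were tested with limma 3.58.1 (R 4.3.3) on log2(FPKM + 0.5) with a mean-dependent prior, over all 6 libraries, with Benjamini-Hochberg adjustment over 13288 genes and a threshold of 0.05. Fold changes on this scale understate changes of low genes. With 3 mice a group, a permutation test of 1 gene could not go below p = 0.1, so none was used. Low FPKM values gave whole fragments (within 0.005) for 22900 of 22905 genes above 0 in at least 2 libraries, and limma's voom was run on these, an alternative chosen after seeing the data. Sample weights used limma's gene-by-gene method, because the default did not converge. Per-library totals, 26967987 to 36070225 fragments, set the precision, and intervals cover counting error only.

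The 45 genes, the other lists and the tests were chosen with earlier results of these data known. All 45 may be named. In the other cell cycle lists the 4 genes with the smallest p were named, with transcription factors and inhibitors whose role is explained. Gene positions and exon overlaps came from GENCODE on GRCm39, and promoters from RefSeq, analysed with Python 3.11.15. Alternatives were other pseudocounts, filters and scalings, sample weights, a block on mouse number and leaving out each mouse.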

Additional observations from a re-analysis of the deposited data

How the results depend on the processing

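The log2 change stayed negative for each of the 45 genes under every setting that tested it, with a median (-2.53) of -3.23 with a pseudocount of 0.1 and -3.65 with voom. The number of the 45 called lower (42) was 32 with a pseudocount of 0.1, 43 with 1, 15 with no filter, 41 of 44 with a filter at 1 FPKM, 32 with median-of-ratios scaling, 41 with quantile normalization, 29 without fibre and mitochondrial genes in the total, 45 with sample weights and 40 with voom. In the same order, the share of all tested genes called lower (42.6%) was 41.6%, 43%, 21.1%, 44.2%, 26.3%, 30.3%, 27.8%, 58.1% and 38.6%. With 1 mouse left out the number of the 45 called lower lay between 2 and 45, against 18.9% to 55.1% of all genes, and the median log2 change of the 45 between -3.47 and -1.86. Without a filter, 28 other mitosis, 3 condensin and cohesin and 17 replication genes were lower. With median-of-ratios scaling, 3496 of all genes, 4 condensin and cohesin genes and 1 anaphase promoting complex gene were lower. Quantile normalization gave 7 and 3 for those lists. Without fibre and mitochondrial genes in the total, 3690 of all genes, 3 condensin and cohesin, 3 anaphase promoting complex and 20 replication genes were lower. Sample weights gave 15 lower transcription factor genes. The cause of these shifts was not tested. With 1 mouse left out, 2507 to 7288 of all genes were lower, with 4 to 61 other mitosis, 0 to 12 condensin and cohesin (limma, 4 to 12 at an unadjusted p under 0.05), 1 to 12 anaphase promoting complex, 4 to 37 replication, 1 to 15 transcription factor and 2 to 10 G1 genes.

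The labels state no pairing by mouse number, and whether the numbers pair the samples was not tested. Correlations of deviations from the group mean were 0.122, 0.067 and 0.138 for same-numbered mice. They ran from -0.182 to 0.112 for different-numbered mice. Each WT mouse had its highest correlation with the HDCKO mouse of the same number. With the number as a replicate block, 45 genes were lower, against 38.3% of all genes, and Bub1b, Kif23 and Mki67 had limma adjusted p-values of 0.0332, 0.0380 and 0.0351. HDCKO mouse 1, with a median of 13 fragments per gene over the 45 genes, limits the precision of low genes.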
